A study of Mus musculus with 24 samples.

Results

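Expression of 10 cardiac transcription factor genes was examined in whole hearts of adult mice: Gata4, Gata6, Mef2a, Mef2c, Mef2d, Nkx2-5, Tbx5, Tbx20, Irx3 and Irx5. They were taken from the deposited expression table by exact match of the gene symbol, which found all 10 of them among 19664 rows. The study profiled polyadenylated RNA of 24 untreated C57BL/6J hearts in 4 genotypes of 6 hearts each, with 3 males and 3 females per genotype. Wild-type mice (WT) served as controls for mice with a cardiac specific OGA transgene (OGA_TG), mice with a cardiac specific OGT transgene (OGT_TG) and OGA x OGT double transgenic mice (DTG). The labels gave the age only as adult, and they did not give the promoter that drives either transgene. Each value is the level in a whole heart, so fewer cells of a type and less RNA per cell cannot be told apart.

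OGT attaches the sugar O-GlcNAc to serines and threonines of nuclear and cytoplasmic proteins, and OGA takes it off. The 10 genes encode DNA-binding proteins that build the heart in the embryo and go on to control contractile, conduction and ion channel genes in the adult. GATA, MEF2, T-box and NKX2 proteins bind many of the same cardiac enhancers together, and the Iroquois proteins shape the regional pattern of potassium channels across the ventricular wall.

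Promoter windows from RefSeq (build GRCm38.p6) were matched by symbol for 6 of the 10 genes, namely Mef2a, Mef2c, Mef2d, Nkx2-5, Tbx20 and Irx3. The 250 bases before the annotated start are shown for Tbx20, Mef2a and Mef2d, whose levels differed between genotypes, and for the first of 3 Mef2c windows, which had another base composition. Each is written 5′ to 3′ on the strand of its gene. The windows are Tbx20 at chr9:24774304-24774553 (minus strand), Mef2a at chr7:67372859-67373108 (minus strand), Mef2d at chr3:88142122-88142371 (plus strand) and Mef2c at chr13:83503784-83504033 (plus strand). Capitals mark the only motif match in these 4 windows, a TATAAA read on the opposite strand.
Tbx20: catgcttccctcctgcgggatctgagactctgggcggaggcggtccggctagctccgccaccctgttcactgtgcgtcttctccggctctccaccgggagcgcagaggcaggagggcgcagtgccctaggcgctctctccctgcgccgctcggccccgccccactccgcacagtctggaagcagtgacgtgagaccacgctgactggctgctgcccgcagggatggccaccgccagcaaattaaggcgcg
Mef2a: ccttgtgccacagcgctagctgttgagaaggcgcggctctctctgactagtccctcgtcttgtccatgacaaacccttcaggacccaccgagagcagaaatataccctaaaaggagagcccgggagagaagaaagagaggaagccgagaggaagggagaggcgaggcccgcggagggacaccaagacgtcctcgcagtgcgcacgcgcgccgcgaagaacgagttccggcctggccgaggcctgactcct
Mef2d: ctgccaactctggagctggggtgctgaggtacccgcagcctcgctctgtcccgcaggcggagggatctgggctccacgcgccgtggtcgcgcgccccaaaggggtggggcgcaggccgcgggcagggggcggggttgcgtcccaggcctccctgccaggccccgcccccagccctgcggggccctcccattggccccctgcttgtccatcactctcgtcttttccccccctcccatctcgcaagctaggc
Mef2c: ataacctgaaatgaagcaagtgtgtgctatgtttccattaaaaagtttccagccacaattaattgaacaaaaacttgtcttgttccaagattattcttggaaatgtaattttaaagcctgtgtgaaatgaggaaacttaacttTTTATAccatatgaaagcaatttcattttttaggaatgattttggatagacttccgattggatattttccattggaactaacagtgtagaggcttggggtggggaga
The windows of Tbx20, Mef2a and Mef2d were 68.8%, 61.6% and 73.2% G or C and held 22, 21 and 19 CpG dinucleotides. The Mef2c window was 33.6% G or C and held 1 CpG. The median over 32817 windows of this length was 52.4% G or C and 6 CpG. Both strands were searched, with overlapping matches allowed. The motif of GATA factors, spelled AGATAA, occurred in 9.99% of all windows, and the NKX2 motif, spelled CACTTAA, in 2.10%. The motif of T-box proteins, spelled AGGTGTG, occurred in 5.10%, the letters TATAAA in 12.4% and the MEF2 consensus in 0.509%. In the windows shown the only match was that of Mef2c, and a second Mef2c window at chr13:83523406-83523655 held the T-box motif and TATAAA once each. Such a match is a description of letters and says nothing of binding.

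Levels are given in FPKM, a fragment number divided by transcript length and by library size. This division makes no allowance for base composition, so the order of genes by level is approximate. The longest annotated transcripts of Nkx2-5, Irx3 and Irx5 are 67.1%, 62.5% and 65.4% G or C, and the part of base composition in their low levels was not tested. In WT hearts Gata4 was the highest of the 10 genes at 68.2 ± 4.70 FPKM (SD, n = 6) and exceeded 92.1% of the 12020 rows that passed the expression minimum. Mef2a and Mef2d followed at 53.0 ± 4.76 and 46.5 ± 1.05 FPKM. Gata6 and Tbx20 stood side by side at 29.2 ± 3.88 and 29.0 ± 2.49 FPKM. Tbx5 and Mef2c came next at 16.8 ± 1.06 and 16.3 ± 1.47 FPKM, also within their spread of each other. Nkx2-5 at 10.9 ± 3.31, Irx3 at 5.83 ± 1.24 and Irx5 at 1.95 ± 0.168 FPKM were the lowest, and Irx5 exceeded only 13.2% of those rows. All 10 genes passed the minimum of 1 FPKM in at least 6 hearts.

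The transgene rows separated the genotypes as labelled. Means of the row OGT, in FPKM, were 1.68 ± 1.45 for WT, 0.588 ± 0.266 for OGA_TG, 1748 ± 737 for OGT_TG and 4652 ± 449 for DTG (SD, n = 6). Means of the row OGA were 0.00637 ± 0.0101, 4122 ± 732, 0.00209 ± 0.00512 and 3462 ± 294 FPKM in the same order. Cardiomyocyte markers summed to 21017 to 30534 FPKM in a heart, and no marker row of any cell type list was at 0 in every heart of a genotype. Estimated depth was 11.4 to 17.8 M fragments, and in the shallowest case Irx5 rested on an estimated 42.5 fragments, Irx3 on 97.4, Nkx2-5 on 102 and each other gene on at least 545. OGT_TG replicates 3 and 6 stood apart from the other OGT_TG hearts, with 52.7 and 52.9 on the first principal component against 11.4 to 17.9. Where a difference is printed for the 10 genes or lists, its value without these 2 hearts is added if a call ended or it moved by over 1.5 times.

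**Figure D1:**
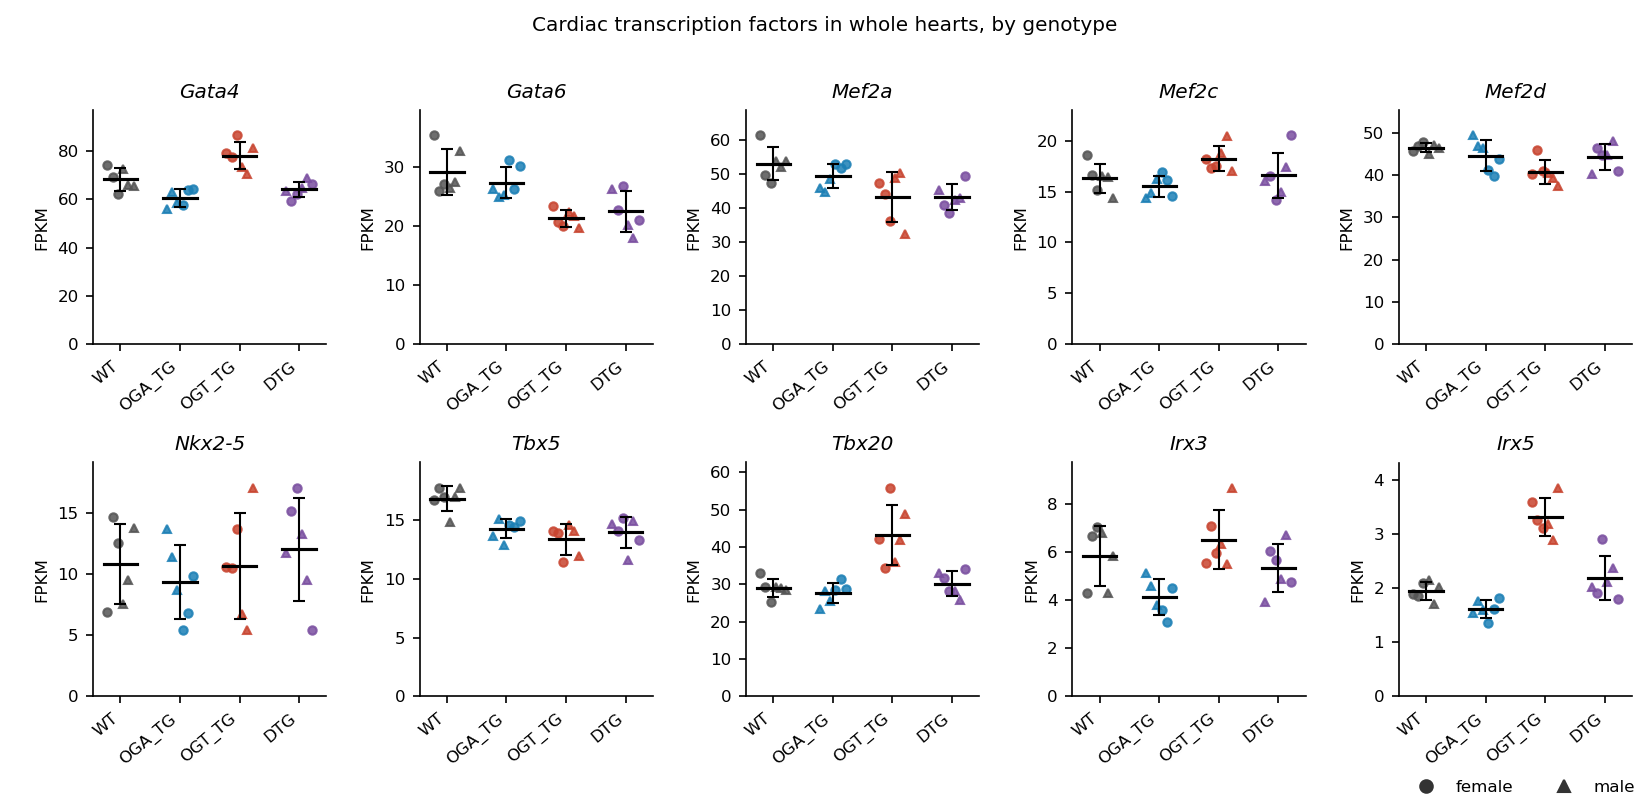
FPKM (vertical axes, from 0) of the 10 genes in each of 24 hearts, by genotype. Circles are female and triangles male hearts, and black lines are means with SD (n = 6). Tbx20 and Irx5 in OGT_TG lie above all WT hearts, Gata6 and Tbx5 in OGT_TG lie below them, and Nkx2-5 spreads from 5.41 to 17.1 FPKM.

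OGT_TG hearts differed from WT in 7 of the 10 genes. Gata4, Tbx20 and Irx5 rose, and Gata6, Mef2a, Mef2d and Tbx5 fell. A call means that limma gave an adjusted p under 0.05, with the Benjamini-Hochberg adjustment made across the 12020 rows. By this rule 25.2% of all rows were higher in OGT_TG, beside 3 of 10 transcription factors, and 12.2% were lower, beside 4 of 10. All 6 hearts of OGT_TG lay beyond all 6 of WT for 4 of the 10 genes (Gata6, Tbx5, Tbx20 and Irx5) and for 15.1% of all rows. The median difference on the scale of log2(FPKM + 1) was 0.05 for the 10 genes and 0.06 for all rows. The balance of calls over all rows depended on scaling, since 67.3% of calls were higher as deposited, 47.4% with median-of-ratios factors and 47.0% after quantile normalization. Both settings placed the median of all rows 0.08 to 0.09 lower.

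The largest differences by log2 were those of Irx5 and Tbx20. Tbx20, a T-box factor that is needed to maintain adult cardiomyocyte function in mice, was 25.2 to 33.0 FPKM in WT hearts (median 29.1) and 34.2 to 55.9 FPKM in OGT_TG (median 42.0). Every OGT_TG heart was above every WT heart. The mean in OGT_TG was 1.49 times that of WT, a difference of 0.54 log2 (SE 0.10, limma adjusted p = 0.00017). In DTG hearts Tbx20 was 25.8 to 34.2 FPKM (median 29.9), which was below every OGT_TG heart and overlapped WT. OGA_TG hearts were at 23.5 to 31.4 FPKM (median 28.3). Tbx20 was thus highest in OGT_TG, and DTG, WT and OGA_TG overlapped, with 95% intervals of -0.15 to 0.25 log2 for DTG against WT and -0.27 to 0.13 for OGA_TG against WT. OGT_TG replicates 3 and 6 held 55.9 and 48.8 FPKM, the highest of the group, and without them the difference from WT was 0.39 log2 (adjusted p = 0.0017).

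Irx5, an Iroquois factor known as a repressor of the potassium channel gene Kcnd2 in the mouse ventricle, was the lowest of the 10 genes. Its level was 1.71 to 2.16 FPKM in WT (median 1.96) and 2.89 to 3.87 FPKM in OGT_TG (median 3.22). The OGT_TG hearts were all above the WT hearts. The mean was 1.70 times that of WT, and the difference of 0.54 (SE 0.08, limma adjusted p = 1.5e-05) on the scale of log2(FPKM + 1) became 0.73 with a pseudocount of 0.1, which shrinks differences between low values less. In DTG, Irx5 was 1.80 to 2.91 FPKM (median 2.07), and in OGA_TG 1.35 to 1.82 FPKM (median 1.61). DTG overlapped WT and reached the lowest OGT_TG heart. The gene lies on chr8:92357625-92376286 (plus strand, mm10), 555557 bases from its neighbour Irx3.

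Irx3, the other Iroquois gene, supports fast conduction in the ventricular conduction system of the mouse. It was 4.31 to 7.05 FPKM in WT (median 6.25), 5.51 to 8.70 FPKM in OGT_TG (median 6.16), 3.94 to 6.74 in DTG (median 5.29) and 3.11 to 5.14 FPKM in OGA_TG (median 4.16). OGT_TG and WT overlapped, and their difference of 0.15 log2 was not called (95% interval -0.13 to 0.42, limma adjusted p = 0.41). It was 0.08 log2 without OGT_TG replicates 3 and 6, 0.07 with library weights, and 0.07 and 0.04 with median-of-ratios and quantile scaling. OGT_TG exceeded OGA_TG in every heart, by 0.55 log2 (SE 0.13, limma adjusted p = 0.0018).

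The GATA genes moved apart in OGT_TG. Gata4, the zinc finger factor that drives cardiomyocyte genes in development and in hypertrophy, was 62.0 to 74.3 FPKM in WT (median 67.5) and 70.6 to 86.4 FPKM in OGT_TG (median 78.2). Gata6, its relative in the same cells, was 26.0 to 35.4 FPKM in WT (median 27.3) and 19.7 to 23.4 FPKM in OGT_TG (median 21.2). Gata6 was lower in every OGT_TG heart than in any WT heart, whereas the ranges of Gata4 overlapped. Gata4 rose by 0.19 log2 (SE 0.06, limma adjusted p = 0.010). Gata6 fell by 0.43 log2 (SE 0.09, limma adjusted p = 0.00068). The call for Gata4 was lost under median-of-ratios scaling (0.10 log2, adjusted p = 0.13) and without OGT_TG replicates 3 and 6 (0.14 log2, adjusted p = 0.082).

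In DTG the GATA genes took different positions. Gata4 was 59.4 to 68.7 FPKM (median 64.0), below every OGT_TG heart, and Gata6 was 18.0 to 26.8 FPKM (median 21.9), over the range of OGT_TG. In OGA_TG, Gata4 was 55.9 to 64.0 FPKM (median 60.7) and Gata6 25.0 to 31.2 FPKM (median 26.4). Gata4 was therefore ordered OGT_TG, WT, DTG, OGA_TG, in which DTG did not differ by call from either WT or OGA_TG. For Gata6 the order was WT, OGA_TG, DTG, OGT_TG, with no call between neighbours except OGA_TG and DTG. The annotation places an RNA on the opposite strand, 1010001N08Rik, across the start of Gata6 (chr18:10987944-11052567, mm10). It stood at 13.0 ± 1.66 FPKM in WT, 13.2 ± 1.62 in OGA_TG, 7.99 ± 1.20 in OGT_TG and, in DTG, 8.61 ± 0.714 FPKM (SD, n = 6). Its differences from WT were -0.64 log2 in OGT_TG (SE 0.09, limma adjusted p = 1.5e-05) and -0.54 in DTG (SE 0.09, limma adjusted p = 0.00034). The libraries were stranded per the labels, but whether strand was used in quantification is not given in the sources used here, so shared reads at the overlap cannot be told apart.

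Of the MEF2 genes, which encode MADS box factors of muscle gene programs, 2 fell in OGT_TG. Mef2a, a major form in the adult heart, was 47.4 to 61.3 FPKM in WT (median 52.9) and 32.5 to 50.2 FPKM in OGT_TG (median 45.8). Mef2d, which mediates responses of the heart to pressure load in mice, was 45.0 to 47.8 FPKM in WT (median 46.7) and 37.4 to 45.9 FPKM in OGT_TG (median 40.4). The ranges overlapped for both genes, with 1 OGT_TG heart inside the narrow WT range of Mef2d. The differences were -0.30 log2 for Mef2a (SE 0.09, limma adjusted p = 0.012) and -0.19 log2 for Mef2d (SE 0.06, limma adjusted p = 0.013). OGT_TG replicates 3 and 6 had the lowest Mef2a, 36.1 and 32.5 FPKM against 44.1 to 50.2 in the other 4. Without them neither gene was called (Mef2a -0.15 log2, adjusted p = 0.14, and Mef2d -0.16 log2, adjusted p = 0.060). Mef2a was also not called with library weights (-0.15 log2, adjusted p = 0.077).

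Mef2c, which is needed for heart looping and ventricle formation in the mouse embryo, went the other way. It was 14.4 to 18.6 FPKM in WT (median 16.5), 14.4 to 16.9 in OGA_TG (median 15.5), 17.1 to 20.5 in OGT_TG (median 17.9) and 14.1 to 20.5 FPKM in DTG (median 16.3). OGT_TG overlapped WT, and the difference of 0.16 log2 was not called (95% interval 0.00 to 0.31, limma adjusted p = 0.10). It was called with title numbers as a replicate block, in which WT and OGT_TG hearts are compared within shared numbers (0.16 log2, adjusted p = 0.049), and with library weights (0.18 log2, adjusted p = 0.022). Under median-of-ratios and quantile scaling it was 0.07 log2 each (adjusted p = 0.48 and 0.51). OGT_TG exceeded OGA_TG in every heart, by 0.22 log2 (SE 0.07, limma adjusted p = 0.020).

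Tbx5, whose human counterpart is mutated in Holt-Oram syndrome and which controls conduction genes, had its highest level in WT. It was 14.8 to 17.8 FPKM in WT (median 16.9), 12.9 to 15.1 in OGA_TG (median 14.5), 11.5 to 14.6 in OGT_TG (median 14.0) and 11.6 to 15.2 FPKM in DTG (median 14.3). All OGT_TG hearts were below all WT hearts, while WT replicate 4, at 14.8 FPKM, lay within the ranges of OGA_TG and DTG. The difference from WT was -0.31 log2 in OGT_TG (SE 0.07, limma adjusted p = 0.0010) and -0.26 log2 in DTG (SE 0.07, limma adjusted p = 0.012). In OGA_TG it was -0.22 log2 and was not called (limma adjusted p = 0.19). The 3 transgenic genotypes overlapped and did not differ by call from each other.

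Nkx2-5, the homeodomain factor that marks the cardiac lineage from its start, varied more within genotypes than any other of the 10 genes. It was 6.88 to 14.7 FPKM in WT (median 11.1), 5.43 to 13.8 in OGA_TG (median 9.29), 5.46 to 17.1 in OGT_TG (median 10.6) and 5.41 to 17.1 FPKM in DTG (median 12.5). All 4 ranges overlapped, and no genotype difference was called. For OGT_TG against WT the difference was -0.06 log2 with a 95% interval of -0.61 to 0.50 and limma adjusted p = 0.90. Without OGT_TG replicates 3 and 6 it was -0.34 log2 (adjusted p = 0.40), with library weights -0.33 log2 (adjusted p = 0.21), and with quantile or median-of-ratios scaling -0.14 log2. Its SD within genotypes was 0.49 log2, larger than in 98.3% of tested rows, whose median was 0.16.

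The spread of Nkx2-5 moved with the base composition of what each library recorded. For every heart a GC tilt was computed, the median log2 difference from WT of the 708 rows richest in G and C less that of the 708 poorest. It ran from -0.43 to 0.27 in WT, -0.47 to 0.30 in OGA_TG, -0.48 to 0.34 in OGT_TG and -0.33 to 0.40 in DTG. The lowest Nkx2-5 of each genotype came from the heart with the lowest tilt. Across 24 hearts, with each value taken as its deviation from its genotype's mean, Pearson's r was 0.97 and Spearman's rho 0.95 (permutation p = 1e-05 each, the smallest that 100000 permutations can give, adjusted p = 3.33e-05 and 5e-05 over 10 genes). Without the 2 hearts farthest from the median tilt r was 0.96, and within genotypes it was 0.96 to 1.00.

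The other genes followed the tilt to different degrees and in both directions. The longest annotated Nkx2-5 transcript is 67.1% G or C, those of Mef2a and Mef2c are 42.0% and 40.8%. Mef2a and Mef2c moved against the tilt, with r of -0.81 and -0.84 and rho of -0.87 and -0.80 (permutation p = 1e-05 for each r, adjusted p = 3.33e-05). Irx3 (r 0.63, rho 0.66, permutation adjusted p = 0.0064 and 0.0036) and Mef2d (r 0.52, rho 0.56, permutation adjusted p = 0.033 and 0.019) moved with it. For Irx5 r was 0.49 (permutation adjusted p = 0.038) and rho 0.38 (permutation adjusted p = 0.14). Its r was weaker without the 2 farthest hearts, at 0.33. Within genotypes r for Irx5 was 0.06 in WT, 0.57 in OGA_TG, 0.68 in OGT_TG and 0.58 in DTG. Gata4, Gata6, Tbx5 and Tbx20 had r between -0.22 and -0.10 over all hearts, and none passed. Within single genotypes of 6 hearts their r took both signs. It ran from -0.82 (WT) to 0.84 (OGT_TG) for Gata4 and from -0.80 (WT) to 0.37 (OGT_TG) for Tbx20. For Tbx5 it ran from -0.70 (OGT_TG) to 0.58 (WT), and for Gata6 from -0.68 (OGT_TG) to 0.37 (DTG). A low r over all hearts thus does not mean that these genes were free of the tilt. The median size of r over all tested rows was 0.48, so a relation with the tilt was common in this table, and that of Nkx2-5 was exceeded by 53 rows.

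**Figure D2:**
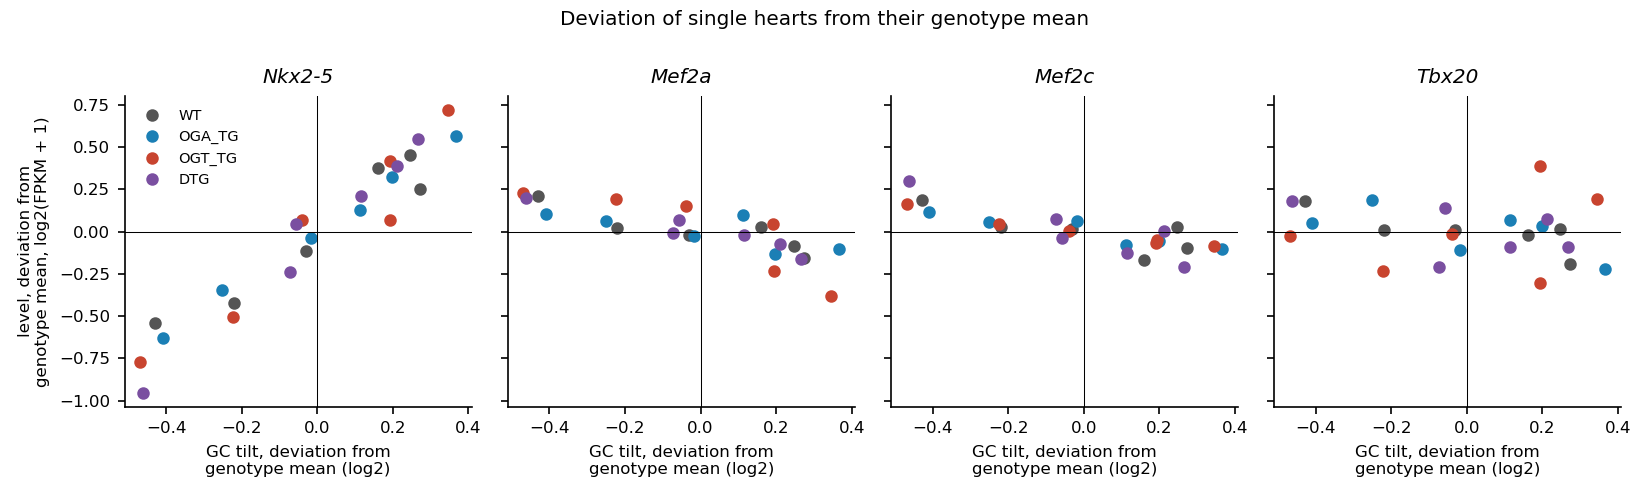
Level of 4 genes (vertical axis, log2(FPKM + 1)) against GC tilt (horizontal axis, log2) in 24 hearts, each as the deviation from the mean of its genotype; colours mark genotypes. Nkx2-5 rises with the tilt (r = 0.97), and Mef2a and Mef2c fall with it (r = -0.81 and -0.84). Tbx20 has r = -0.21 over all hearts, with r of both signs within genotypes.

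The mean tilt was -0.00 in WT, -0.06 in OGA_TG, -0.01 in OGT_TG and 0.13 in DTG. With the tilt as a covariate, a setting chosen after the data were seen, the SE of the Nkx2-5 difference between OGT_TG and WT went from 0.27 to 0.07 log2, and the difference was -0.05 log2 (limma adjusted p = 0.63). For DTG against OGA_TG, the genotypes farthest apart in tilt, the Nkx2-5 difference was 0.31 log2 without the covariate (limma adjusted p = 0.45). It was -0.01 with the tilt as a covariate (adjusted p = 0.93), and 0.31 with only the deviation of the tilt within genotypes (adjusted p = 0.0028). In OGT_TG against WT with the tilt itself as the covariate, the 7 called genes were called. Mef2c passed as well (0.15 log2, limma adjusted p = 0.0061). With that covariate and without OGT_TG replicates 3 and 6, Mef2a was called (-0.20 log2, limma adjusted p = 0.00076). So were Mef2d (-0.13 log2, limma adjusted p = 0.0285) and Mef2c (0.14 log2, limma adjusted p = 0.037). Gata4 was not called in that setting (0.13 log2, limma adjusted p = 0.069).

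Ratios within a family do not change when a library is rescaled by a single factor. Of 5 such ratios, 4 had no overlap between OGT_TG and WT hearts, beside 15.1% of single rows. How often ratios of other pairs of rows separate these genotypes was not computed, so this count has no background. Gata6 to Gata4 and Tbx20 to Tbx5 also set genes called in opposite directions in the same hearts against each other. The log2 difference was -0.64 for Gata6 to Gata4, 0.48 for Mef2c to Mef2a, 0.89 for Tbx20 to Tbx5 and 0.59 for Irx5 to Irx3. Each had an exact two-sided permutation p of 0.00216, the smallest that 12 hearts in 2 groups of 6 allow, and adjusted p = 0.00866 over 20 tests. The test used all splits of the hearts, so it ignored sex and the title numbers shared by WT and OGT_TG. Gata6 made up 29.9% ± 2.64 of the summed GATA level in WT and 21.5% ± 2.03 in OGT_TG (SD, n = 6). Tbx20 made up 63.3% ± 2.63 of the summed T-box level in WT and 75.9% ± 4.86 in OGT_TG, and Irx5 25.5% ± 3.34 and 33.9% ± 3.03 of the Iroquois level. Mef2d to Mef2a differed by 0.12 log2, with exact permutation adjusted p = 0.42 and overlapping groups, and by -0.01 log2 without OGT_TG replicates 3 and 6.

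In DTG against WT only Mef2c to Mef2a passed among the 5 ratios, at 0.32 log2 with the groups apart (exact permutation adjusted p = 0.00866). Tbx20 to Tbx5 was 0.32 log2 (exact permutation adjusted p = 0.062) and passed without DTG replicate 5 (0.39 log2, adjusted p = 0.037). Against OGT_TG, Tbx20 to Tbx5 was lower in DTG by 0.57 log2 (exact permutation p = 0.00866, adjusted p = 0.029). That call was lost without OGT_TG replicate 3 or 6 or DTG replicate 1, 2, 3 or 5 (-0.58 to -0.44 log2, adjusted p = 0.0505 to 0.0595), and without OGT_TG replicates 3 and 6 together (-0.33 log2, adjusted p = 0.13). Gata6 to Gata4 differed by 0.35 log2 between DTG and OGT_TG (exact permutation adjusted p = 0.070) and passed without DTG replicate 5 (0.43 log2, adjusted p = 0.0072). No ratio passed in OGA_TG against WT.

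**Figure D3:**
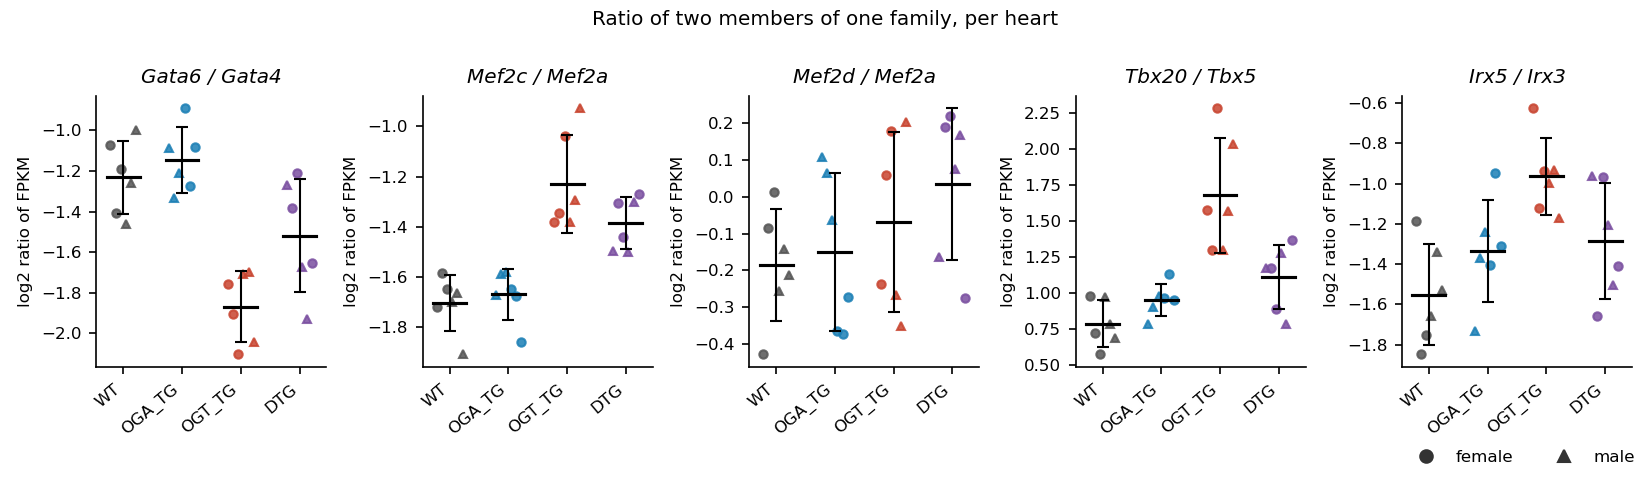
Log2 ratio of FPKM (vertical axes) of 2 genes of a family in each heart, by genotype, with mean and SD (n = 6). In OGT_TG the ratios Gata6 to Gata4, Mef2c to Mef2a, Tbx20 to Tbx5 and Irx5 to Irx3 lie wholly outside WT, and Mef2d to Mef2a overlaps.

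The double transgenic hearts carried both enzymes, and their comparison with WT shared the WT hearts with the comparisons above. In DTG, 3 of the 10 genes fell and 0 rose against WT, beside 11.4% and 4.21% of all rows. These were Gata6 at -0.36 log2 (SE 0.09, limma adjusted p = 0.0068), Mef2a at -0.29 log2 (SE 0.09, limma adjusted p = 0.033) and Tbx5 at -0.26 log2, whose values are given above. Mef2a was 38.4 to 49.5 FPKM in DTG (median 42.6), and 1 heart exceeded the lowest WT heart. Gata6 also overlapped WT. The Mef2a call was lost without DTG replicate 2, 3, 4 or 5 or WT replicate 1, 4, 5 or 6 (adjusted p = 0.051 to 0.091) and under all 3 rescalings tried (adjusted p = 0.090 to 0.14). Tbx5 was not called under median-of-ratios scaling (-0.21 log2, adjusted p = 0.062) or equal sums of FPKM (-0.20 log2, adjusted p = 0.057). Of all calls, 26.9% were higher as deposited, and 45.1%, 43.7% and 50.7% under median-of-ratios, quantile and equal-sum scaling.

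Compared with OGT_TG, DTG had 3 of the 10 genes lower and 0 higher, beside 27.2% and 5.02% of all rows. The OGT row also differed, at 1748 ± 737 FPKM in OGT_TG and 4652 ± 449 in DTG. The comparison thus does not isolate the OGA transgene. Gata4 was lower by 0.28 log2 (95% interval -0.40 to -0.16, limma adjusted p = 0.00089). Tbx20 was lower by 0.49 log2 (95% interval -0.69 to -0.29, limma adjusted p = 0.00076), and Irx5 by 0.44 log2 (95% interval -0.60 to -0.28, limma adjusted p = 0.00029). For Gata4 and Tbx20 no DTG heart reached the lowest OGT_TG heart, and 9.89% of all rows likewise had no overlap between these genotypes. These were the 3 genes called higher in OGT_TG, and this comparison uses the same OGT_TG hearts. Gata6, Mef2a and Tbx5, in contrast, differed from OGT_TG by 0.06, 0.01 and 0.06 log2, with 95% intervals of -0.12 to 0.25, -0.18 to 0.20 and -0.08 to 0.20. Without OGT_TG replicates 3 and 6 these differences were 0.02, -0.14 and -0.03 log2 (adjusted p = 0.92, 0.16 and 0.79), and the 3 lower genes stayed called. Median-of-ratios and quantile scaling moved the median of all rows by 0.12 log2 here, and the share of calls that were higher from 15.6% to 51.8% and 48.3%. Under both scalings the 3 genes stayed called, with Gata4 at -0.14 and -0.19 log2 (adjusted p = 0.045 and 0.012), Tbx20 at -0.35 and -0.37, and Irx5 at -0.33 and -0.28 log2. Mef2d was called higher in DTG (0.26 and 0.24 log2). Gata6, Mef2a and Tbx5 were at 0.20, 0.15 and 0.19 log2 with median-of-ratios scaling and at 0.17, 0.13 and 0.16 with quantile scaling, none of them called. With library weights Mef2c (-0.21 log2, adjusted p = 0.011) and Nkx2-5 (0.54 log2, adjusted p = 0.036) were also called. Without DTG replicate 6 Mef2c was also called (-0.20 log2, adjusted p = 0.029), and without OGT_TG replicate 2 so was Mef2d (0.15 log2, adjusted p = 0.039).

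**Figure D4:**
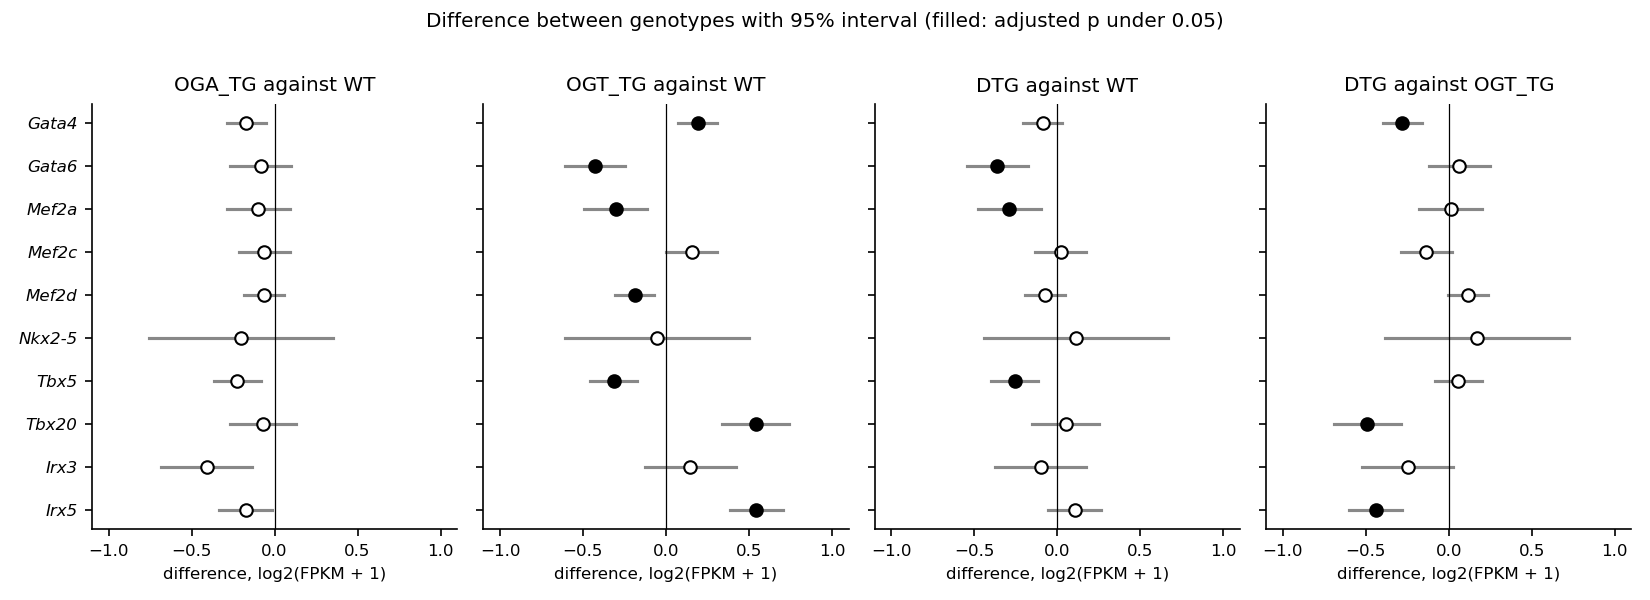
Difference between genotypes on the scale of log2(FPKM + 1) (horizontal axes) with 95% intervals for the 10 genes in 4 comparisons; filled points have limma adjusted p under 0.05. OGT_TG against WT has 7 filled points, OGA_TG against WT none, and DTG against OGT_TG those of Gata4, Tbx20 and Irx5.

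In OGA_TG against WT, 0 of the 10 genes were called with limma, beside 0.358% of all rows. At an unadjusted limma p under 0.05 there were 4 genes, all lower in OGA_TG, beside 9.48% of all rows. They were Irx3 at -0.41 log2 (95% interval -0.68 to -0.13), Tbx5 at -0.22 (-0.36 to -0.08), Irx5 at -0.17 (-0.34 to -0.01) and Gata4 at -0.17 (-0.29 to -0.05). With library weights Tbx5 was called (-0.24 log2, limma adjusted p = 0.030). Gata4 was -0.11 log2 under median-of-ratios scaling, and Irx5 -0.11 log2 under quantile scaling. The few calls over all rows were 16.3% higher as deposited, and 41.9%, 37.5% and 29.4% higher under median-of-ratios, quantile and equal-sum scaling.

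The single transgenic genotypes differed from each other in 6 genes. In OGT_TG against OGA_TG 5 were higher and 1 was lower, beside 33.3% and 11.1% of all rows. Irx5 was higher by 0.72 log2 (SE 0.08, limma adjusted p = 2.6e-07), with a mean 2.05 times that of OGA_TG, and Tbx20 by 0.61 log2 (SE 0.10, limma adjusted p = 3.0e-05). Gata4 was higher by 0.36 log2 (SE 0.06, limma adjusted p = 2.4e-05), and Gata6 was lower by 0.34 log2 (SE 0.09, limma adjusted p = 0.0032). The other higher genes were Irx3 and Mef2c, with values given above, and all 6 genes separated the genotypes without overlap, as did 20.8% of all rows. Median-of-ratios and quantile scaling, which lowered the median of all rows by 0.13 and 0.14 log2, each gave 4 higher and 4 lower, and the share of calls higher over all rows went from 75.0% to 46.4% and 46.0%. Mef2c was not called under either, at 0.07 and 0.08 log2 (adjusted p = 0.42 and 0.41). Mef2a (-0.35 and -0.30 log2), Mef2d (-0.27 and -0.22) and Tbx5 (-0.23 and -0.22) were called lower. Gata4 stayed called at 0.21 and 0.28 log2. The Mef2c call was also lost without OGT_TG replicate 5 (0.18 log2, adjusted p = 0.054). Mef2a was called without OGT_TG replicate 4 or 5 (-0.25 and -0.26 log2, adjusted p = 0.036 and 0.027), and Mef2d without OGA_TG replicate 5 or OGT_TG replicate 2 (-0.16 log2 each, adjusted p = 0.037 and 0.021). Without OGT_TG replicates 3 and 6 together, Mef2a went from -0.20 log2 to -0.05 (limma adjusted p = 0.63). In the same setting Tbx5 went from -0.09 to -0.01 log2 and Nkx2-5 from 0.15 to -0.14, and none of these was called with or without those hearts.

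In DTG against OGA_TG 1 gene was higher and 1 was lower, beside 8.33% and 9.77% of all rows. Irx5 was higher by 0.28 log2 (SE 0.08, limma adjusted p = 0.015) and Gata6 lower by 0.28 log2 (SE 0.09, limma adjusted p = 0.030). Both overlapped between the genotypes. The Gata6 call was lost without DTG replicate 2, 4, 5 or 6 or OGA_TG replicate 4 or 6 (adjusted p = 0.056 to 0.085). Irx3 became a call without DTG replicate 1 (0.39 log2, adjusted p = 0.049). With equal sums of FPKM the share of all calls that were higher went from 46.0% to 57.6%, and Gata6 was not called (-0.25 log2, adjusted p = 0.053).

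Whether the OGA transgene acted differently in the presence of the OGT transgene was tested as an interaction. In it the difference of OGA_TG from WT is subtracted from that of DTG from OGT_TG. The OGT row was higher in every DTG heart (3986 to 5261 FPKM) than in any OGT_TG heart (715 to 2691 FPKM). The interaction therefore does not compare the OGA transgene at a fixed OGT level. Of the 10 genes 0 passed with limma, beside 7.3% of all rows, and 4 had an unadjusted p under 0.05, beside 25.4% of all rows. Tbx20 had -0.42 log2 (SE 0.14, limma adjusted p = 0.061), Tbx5 0.28 (SE 0.10, adjusted p = 0.072), Irx5 -0.27 (SE 0.11, adjusted p = 0.13) and Mef2d 0.18 (SE 0.08, adjusted p = 0.17). Tbx20 passed without DTG replicate 6, OGA_TG replicate 1, or OGT_TG replicate 2 or 4 (-0.49 to -0.45 log2, adjusted p = 0.015 to 0.047), and it was -0.28 log2 without OGT_TG replicates 3 and 6 together (adjusted p = 0.17). Tbx5 passed without DTG replicate 4 or OGT_TG replicate 4 (0.33 and 0.31 log2, adjusted p = 0.038 and 0.046). Under median-of-ratios scaling, where 47.6% of interaction calls over all rows were positive instead of 24.7%, Tbx5 also passed (0.36 log2, adjusted p = 0.044). The quantile setting gave 44.8%, and with it Irx5 was -0.17 and Mef2d 0.27 log2, neither called. With library weights Tbx20 (-0.32 log2, adjusted p = 0.038) and Irx5 (-0.30 log2, adjusted p = 0.041) passed.

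No difference between the sexes was called in these genes. Outside DTG every title number held hearts of a single sex, so the sexes differed in title number as well. In males against females 0 of 10 genes were called with limma, beside 0.266% of all rows. At an unadjusted limma p under 0.05 there were 0 of the 10 genes, beside 863 of the 12020 rows. The widest 95% interval was that of Nkx2-5, -0.37 to 0.42 log2. The difference of OGT_TG from WT compared between sexes was called for 0 of the 10 genes and 0% of all rows, with 0 genes and 196 rows at an unadjusted limma p under 0.05. For Tbx20 and Irx5 the estimates of that difference between sexes were -0.04 and -0.01 log2, with 95% intervals of -0.47 to 0.38 and -0.36 to 0.34. Without OGT_TG replicates 3 and 6 they were 0.03 and -0.14 log2.

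Other cardiac transcription factors and cofactors were examined as a list of 50 genes, 49 with a row and 43 tested. In OGT_TG 3 were higher and 8 lower than in WT, and in DTG 0 were higher and 4 lower, with medians of -0.03 and -0.02 log2. Of all rows, 25.2% were called higher and 12.2% lower in OGT_TG, and 4.21% higher and 11.4% lower in DTG. Hopx, a homeodomain protein that lacks DNA binding and dampens SRF activity, went from 233.6 ± 22.2 FPKM in WT to 125.0 ± 50.3 in OGT_TG and 112.6 ± 12.7 in DTG (SD, n = 6). Its differences were -1.01 log2 (SE 0.20, limma adjusted p = 0.00037) and -1.05 log2 (SE 0.20, limma adjusted p = 0.00078), and in OGT_TG it was -0.57 without replicates 3 and 6. Relatives of the 10 genes were among those that changed. Irx2 and Irx4 fell in OGT_TG by 0.50 and 0.38 log2 and in DTG by 0.37 and 0.35 log2, and Tbx18, a T-box gene of the epicardium and sinus node, rose in OGT_TG by 0.36 log2. The homeodomain gene Meis1 fell by 0.33 log2 in both, and Nfatc4, a calcineurin-responsive factor, rose by 0.33 log2 in OGT_TG, a difference of 0.14 log2 and no call without replicates 3 and 6. Without those 2 hearts the list gave 2 higher and 4 lower, with a median of -0.01 log2.

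Genes known as targets of these factors were examined as a list of 34, of which 31 had a row of their own and were tested. In OGT_TG 4 were higher and 17 lower than in WT, and in DTG 1 was higher and 8 lower, with medians of -0.29 and -0.15 log2 against 0.06 and -0.04 for all rows. The shares of all rows called higher and lower were 25.2% and 12.2% in OGT_TG and 4.21% and 11.4% in DTG. Without OGT_TG replicates 3 and 6, 4 were higher and 12 lower, with a median of -0.18 log2. The 4 that rose in OGT_TG were the stress gene Ankrd1 (2.08 log2), the natriuretic peptide genes Nppb (1.51) and Nppa (1.21) and Xirp2, an actin-binding protein of intercalated discs (1.26). Without those hearts they were 1.77, 1.03, 0.58 and 0.89 log2, all called. Kcnip2, which assists the channel of the transient outward potassium current, fell from 113.3 ± 7.53 FPKM to 52.7 ± 16.3 in OGT_TG and 47.2 ± 5.68 in DTG (SD, n = 6). Myl7, the atrial myosin light chain, fell by 1.14 log2 in OGT_TG, and 0.74 log2 without those hearts. In DTG, Pln (phospholamban), Atp2a2 (the calcium pump it restrains) and Kcnd3 (a potassium channel) fell by 0.84, 0.59 and 0.41 log2. These falls were not particular to DTG. In OGT_TG without replicates 3 and 6 the same genes were called at -0.40, -0.76 and -0.29 log2 against WT. Kcnj2, an inward rectifier channel gene, rose by 0.61 log2 in DTG. Its mean was 14.1 ± 1.73 FPKM in WT, 22.5 ± 5.37 in DTG and 10.3 ± 3.79 in OGT_TG (SD, n = 6).

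Markers of several cell types moved with the OGT_TG genotype. All 10 fibroblast markers rose against WT with a median of 0.98 log2, and their summed level was 1796 to 2950 FPKM in OGT_TG, 1091 to 1302 in WT, 1060 to 1221 in OGA_TG and 1216 to 1627 FPKM in DTG. Of 10 macrophage markers 7 rose and 0 fell, with sums of 244.8 to 575.3 FPKM in OGT_TG and 188.0 to 230.6 in WT. Of 8 cardiomyocyte markers 1 rose and 5 fell, with sums of 21312 to 24131 FPKM in OGT_TG and 26124 to 30534 in WT. Of 9 tested atrial markers 2 rose and 4 fell, of 9 endothelial markers 2 rose and 0 fell, and of 8 mural markers 3 rose and 2 fell. The 1 tested epicardial marker was not called. The cardiomyocyte markers Tnnt2, Actc1, Ryr2, Pln and Myl3 and the atrial markers Myl7, Nppa and Bmp10 are also on the target list. Hopx and Smyd1 are on both the target list and the list of other transcription factors and cofactors. Counts from these lists are therefore not separate observations. Without OGT_TG replicates 3 and 6, 8 of 10 fibroblast markers rose with a median of 0.68 log2, 1 of 10 macrophage markers rose, and 0 of 8 cardiomyocyte markers rose and 5 fell. In that setting 1 of 9 atrial markers rose and 4 fell, no endothelial marker was called with limma, and 0 of 8 mural markers rose and 2 fell. In DTG against WT, 2 of 10 fibroblast markers rose and 2 of 8 cardiomyocyte markers fell. Several of the 10 transcription factor genes are expressed in more than cardiomyocytes, and the part of these marker differences in their levels was not tested.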

How the data were processed

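Polyadenylated RNA of 24 whole hearts was sequenced as stranded paired-end libraries, per the labels. The authors deposited 1 table of FPKM values for all hearts on mm10, and the submitters' processing notes name FastQC, TopHat, SAMtools, StringTie and Cuffdiff 2.2.1. Whether strand was used in quantification is not given in the sources used here. FPKM holds no counts, so depth was only estimated, from the steps between low values of 318 rows with a single transcript.

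Of 19664 rows, 4 with missing values were left out and 12020 with at least 1 FPKM in at least 6 hearts were tested, among them all 10 transcription factor genes and 328 rows that join several genes. The test was limma 3.58.1 in R 4.3.3 on log2(FPKM + 1), with all 24 hearts, genotype and sex in 1 model, an intensity trend, two-sided p-values and Benjamini-Hochberg adjustment over all tested rows. It was tested on simulated data, with an outcome that is not given here. Folds on this scale understate the change of low genes. Ratios of FPKM within families were compared by exact permutation tests (Python 3.11.15, scipy 1.17.1), adjusted over 20 tests. P-values measure the spread between hearts. Outside the replicate block, hearts that share a title number (below) were treated as independent. Group levels are means ± SD.

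The 10 genes, the lists and the tests were chosen with earlier results of these data known. All 10 genes are named. Of each list, up to 6 called genes with the largest difference are named for OGT_TG and for DTG against WT, and for each of the 7 genes called in OGT_TG the 3 rows with the most similar values over 24 hearts. Positions came from GENCODE M21 on the same build, matched by symbol. Transcript GC was available for 88.9% of tested rows.

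The number that opens the sample titles is shared between WT and OGT_TG for 4 numbers. Hearts with the same number deviated together, with correlations of 0.216, 0.575, 0.377 and 0.148 over tested rows, so the numbers were taken to pair these hearts. The highest correlation of the same WT hearts with OGT_TG hearts of another number was 0.356, 0.204, -0.0686 and -0.00044, so for the first number it exceeded that of its own pair. For OGA_TG and DTG the title number and the genotype cannot be told apart. Alternatives were other pseudocounts, filters and scalings, library weights, single-sex and 2-group fits, the title number as a replicate block, and hearts left out. The GC tilt of a heart as a covariate was added after the data were seen.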

Additional observations from a re-analysis of the deposited data

Results flagged for a closer look

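Among the 10 genes in 4 genotypes, 1 of 40 groups held a heart far from the other 5. Tbx5 in WT replicate 4 was 14.8 FPKM, and the gap to the nearest of the other WT hearts made up 0.641 of the whole WT range, above the critical value of 0.625 for 6 hearts. Chance flags about 1 in 20 groups, so a single one among 40 is not unusual. This heart is the WT heart that lay within the Tbx5 ranges of OGA_TG and DTG.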

How the results depend on the processing

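Counts of called genes among the 10 changed by over 1.5 times in these settings. For OGT_TG against WT the count was 7, and it was 3 in males only, 4 in females only and 4 without OGT_TG replicates 3 and 6 together. For OGA_TG against WT it was 0, and 1 with library weights. For DTG against WT it was 3, and it was 1 with equal sums of FPKM, 1 with median-of-ratios scaling and 0 in males only and in females only. For DTG against OGT_TG it was 3, and it was 5 with library weights and 1 in females only. For DTG against OGA_TG it was 2, and it was 1 with a 5 FPKM filter, 1 with equal sums, 0 in either sex alone and 5 with the GC tilt within genotypes as a covariate. For the interaction it was 0, and it was 1 with median-of-ratios scaling, 2 with library weights, 2 with the GC tilt and 3 with the GC tilt within genotypes. Single-sex fits have fewer hearts, and for the other settings the cause was not tested. Calls over all rows for DTG against WT went from 1878 to 1486 with equal sums and 1668 with median-of-ratios scaling. For DTG against OGA_TG they went from 2175 to 2128 with equal sums, and for the interaction from 877 to 708 with median-of-ratios scaling. For the other settings, and for lists and markers without OGT_TG replicates 3 and 6, calls over all rows are not given. Those counts therefore cannot be read as particular to these genes. Leaving out 1 heart at a time gave 7 to 7 calls for OGT_TG against WT, 2 to 3 for DTG against WT, 3 to 4 for DTG against OGT_TG, 1 to 3 for DTG against OGA_TG, 0 to 2 for the interaction and 5 to 7 ratio calls. Gata6, Tbx20 and Irx5 were called in OGT_TG against WT under every alternative in which they were tested. The replicate block, which pairs WT and OGT_TG hearts by title number, added the call for Mef2c (8 calls) and changed no other call among the 10 genes. The partner list had 11 calls in OGT_TG, and 7 with a 5 FPKM filter, 6 without replicates 3 and 6, and 19 with either form of the GC tilt. In DTG it had 4 calls, and 7 with library weights, 7 with the GC tilt and 8 with the tilt within genotypes. The target list had 9 calls in DTG and 16 with library weights. No called result changed direction in any of these settings. Depth limits Irx5, Irx3 and Nkx2-5 most, and rows joining several genes left out Myh6, Myh7 and Tnni3 from the target list.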

Other observations

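For each gene called in OGT_TG against WT, the table was searched for the rows whose log2(FPKM + 1), taken against the WT mean, was nearest over all 24 hearts by root mean square difference. Tbx20 was nearest to Tgfbr1, a TGF-beta receptor, at 0.085 log2, followed by Pea15a (0.11) and Capza1 (0.11). Tgfbr1 was 5.95 FPKM in WT, 5.73 in OGA_TG, 9.34 in OGT_TG and 6.06 FPKM in DTG, and so had a high mean in OGT_TG and similar means elsewhere, like Tbx20. Irx5 was nearest to Rab3d (0.13), the lysosomal membrane gene Lamp1 (0.13) and Tm7sf3 (0.14). Lamp1 was 229.8 FPKM in WT, 314.9 in OGT_TG and 231.8 in DTG. Gata4 was nearest to Ryk (0.077), a Wnt co-receptor, Tbc1d14 (0.082) and Ykt6 (0.084).

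The rows nearest to the genes that fell had low means in both OGT_TG and DTG in most cases. Gata6 was nearest to 8430406I07Rik (0.12 log2), Rbm20 (0.14), a splicing factor of titin, and Neo1 (0.14), and Rbm20 was 65.9 FPKM in WT, 61.2 in OGA_TG, 49.4 in OGT_TG and 52.1 FPKM in DTG. Mef2a was nearest to Antxr2 (0.072), Ube2e3 (0.078) and Adk (0.082), and Tbx5 to Mb21d2 (0.090), Ascc1 (0.10) and Lmo7 (0.11). Mef2d was nearest to Atp5l (0.081), a subunit of mitochondrial ATP synthase, Ubl7 (0.084) and Ptdss2 (0.084), and Atp5l was 1465 FPKM in WT, 1233 in OGT_TG and 1378 in DTG. These distances describe the 24 hearts and were not tested.

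Other RNAs are annotated across genes of this group as well. 1700113A16Rik, on the opposite strand at the end of Mef2d, differed from WT by -0.35 log2 in DTG (SE 0.12, limma adjusted p = 0.049) and by -0.23 in OGT_TG (adjusted p = 0.13). Lysmd4, which overlaps Mef2a on the opposite strand, was not called in OGT_TG, OGA_TG or DTG against WT.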
